A study of Mus musculus with 62 samples.

Results

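A set of 10 genes of MHC class I antigen presentation was followed in mouse hearts during cachexia, the loss of body mass that some tumours bring about. They are the class I heavy chain genes H2-D1, H2-K1, H2-Q4, H2-Q6 and H2-Q7, the light chain gene B2m, the peptide transporter genes Tap1 and Tap2, and the immunoproteasome subunit genes Psmb8 and Psmb9. They were taken by symbol from the deposited expression table, and these 10 of 47643 gene symbols were all among the 12541 that reached 1 TPM in at least 5 libraries. TPM, the unit of that table, is a gene's share of a library after division by transcript length, so levels of different genes are compared per length.

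Hearts came from mice of 3 arms. CAC mice had received cachectic melanoma cells, NCAC mice melanoma cells that are non-cachectic, and Con mice a mock injection, and hearts were taken at weeks 2, 4, 6 and 8. Each of the 12 groups had 5 libraries, except CAC at week 8 with 7 and Con at week 4, where 4 were used. Con week 4 replicate 2 was left out: mitochondrial transcripts held 89.1% of its TPM, and the cardiomyocyte myosin gene Myh6 had 612 TPM there, both outside the range of all other libraries given below with the read depth. The mice were females 2 months old; the sample labels give C57BL/6J as their strain, whereas the series' design text gives NCI Ath/nude. CAC and NCAC differ in the injected cells as well as in the wasting, and the labels name neither cell line. They call the libraries biological replicates. Whole hearts were measured, so a change in the number of cells of a type and in RNA per cell cannot be told apart.

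Class I molecules show peptides from inside the cell to CD8 T cells and natural killer cells. The immunoproteasome cuts proteins into peptides, the Tap1-Tap2 transporter moves them into the endoplasmic reticulum, and a heavy chain folds around each peptide together with B2m. H2-K1 and H2-D1 are the classical, ubiquitous heavy chains, and H2-Q4, H2-Q6 and H2-Q7 belong to the nonclassical Qa region. Interferon gamma, acting in part through Irf1, and the class I transactivator Nlrc5 are the best known inducers of the whole set. Heart muscle cells hold little class I, while endothelial cells and leukocytes hold much more.

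The promoters are shown because the members varied together from animal to animal; whether the motifs marked in them bear on that was not tested. Each sequence is read 5′ to 3′ along its gene, from RefSeq on GRCm38.p6, and the table held 9 of the 10 members, Tap2 being the exception. Capitals mark 4 motifs searched on both strands in the 250 bases before the start: the NF-kappaB type (GGG, any 2 bases, TT, any base, CC), the interferon-response type TTTCNNTTC and its longer form (GAAA, any 2 bases, GAAA), and CCAAT. Tap1 and Psmb9 are transcribed away from each other, and the whole stretch between their RefSeq starts is shown along Tap1.
B2m, chr2:122147538-122147648, plus strand: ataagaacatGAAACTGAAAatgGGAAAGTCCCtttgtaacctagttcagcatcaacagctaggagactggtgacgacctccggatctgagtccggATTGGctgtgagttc
H2-K1, chr17:34000349-34000468, minus strand: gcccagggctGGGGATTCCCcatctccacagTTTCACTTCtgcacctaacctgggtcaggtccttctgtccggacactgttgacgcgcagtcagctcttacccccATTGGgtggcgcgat
H2-D1, chr17:35262913-35263055, plus strand: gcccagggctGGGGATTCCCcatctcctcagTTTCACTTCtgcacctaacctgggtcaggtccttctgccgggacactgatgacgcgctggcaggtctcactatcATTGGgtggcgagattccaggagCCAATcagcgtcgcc
H2-Q4, chr17:35379433-35379576, plus strand: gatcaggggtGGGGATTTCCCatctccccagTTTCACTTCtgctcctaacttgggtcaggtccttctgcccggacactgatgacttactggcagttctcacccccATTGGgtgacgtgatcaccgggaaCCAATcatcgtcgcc
H2-Q6, chr17:35424667-35424809, plus strand: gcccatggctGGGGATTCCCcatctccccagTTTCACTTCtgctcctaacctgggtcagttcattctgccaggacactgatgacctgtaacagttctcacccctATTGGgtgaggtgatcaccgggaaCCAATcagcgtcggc
H2-Q7, chr17:35439012-35439153, plus strand: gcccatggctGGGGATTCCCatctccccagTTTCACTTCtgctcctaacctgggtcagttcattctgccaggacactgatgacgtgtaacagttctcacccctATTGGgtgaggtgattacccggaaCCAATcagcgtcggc
Tap1-Psmb9, chr17:34187331-34187555, plus strand: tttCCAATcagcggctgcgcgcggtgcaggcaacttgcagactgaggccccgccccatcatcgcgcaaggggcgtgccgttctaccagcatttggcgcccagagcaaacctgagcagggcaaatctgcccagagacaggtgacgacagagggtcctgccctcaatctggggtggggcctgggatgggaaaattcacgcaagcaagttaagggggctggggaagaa

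All 5 heavy chain promoters held an NF-kappaB-type match and an interferon-response match shortly after it. B2m held the NF-kappaB-type match beside the longer interferon-response form. The NF-kappaB-type motif was in 6 of the 9 members and in 4.11% of 32851 mouse promoters of the same length. The shorter interferon-response motif was in 5 of the 9 and in 6.31% of all promoters, and the longer form in 1 of the 9 and 2.98%. CCAAT was in 8 of the 9 and in 33.8% of all promoters; in Tap1 and Psmb9 it is the same site, read from either side. Psmb8 held none of these motifs, and its promoter is not printed. In H2-Q4 the NF-kappaB-type motif matches at 2 overlapping positions. A match is a description of these letters only.

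On mm10, 9 of the 10 genes lie on chromosome 17, in the MHC. Psmb9 (34181987 to 34187764, minus strand), Tap1 (34187553 to 34197225, plus), Psmb8 (34197721 to 34201454, plus) and Tap2 (34203527 to 34216321, plus) stand side by side. In these GENCODE coordinates Psmb9 reaches past the start of Tap1, so the Tap1-Psmb9 stretch printed above lies within its span. B2m lies on chromosome 2 (122147686 to 122153083, plus). The heavy chain genes are close copies, with coding sequences 88.3 to 95.4% identical. H2-Q6 and H2-Q7 are the nearest pair at 95.4%, and 31.3% of the 50-base windows of H2-Q6 and 31.0% of those of H2-Q7 occur in another heavy chain member. Their levels are therefore uncertain to the extent that reads were divided between copies. For H2-D1, H2-K1 and H2-Q4 the shares were 19.8, 12.8 and 10.7%.

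Read depth, worked out from the whole-read steps in TPM, was 25.3 to 49.1 M reads per library with a median of 46.2 M. Mitochondrial transcripts held 49.3 to 61.1% of TPM, and the cardiomyocyte myosin gene Myh6 had 3419 to 8033 TPM in the 61 libraries used. T cell markers were near 0, with a summed TPM of 6 genes of at most 1.69, and the T cell gene Cd3d was listed at 0 in 31 libraries. In TPM the median of all tested genes lay 0.19 to 0.24 above 0 on the log2 scale in the CAC comparisons of weeks 6 and 8, and each value there is to be read against that shift.

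B2m was the most abundant member, followed by the classical heavy chains, and H2-Q7, Psmb9 and Tap1 had the lowest medians. Across the 61 libraries B2m had a median of 399 TPM and ranged from 129 to 905. H2-D1 had a median of 94.6 TPM (28.9 to 194) and H2-K1 of 67.0 TPM (18.0 to 150.0). Among the Qa-region genes the medians were 14.2 TPM for H2-Q4, 10.2 for H2-Q6 and 3.92 for H2-Q7. Tap2 had a median of 13.0 TPM, Psmb8 7.80, Psmb9 3.64 and Tap1 3.27. The reads behind these values ran from 2430 to 18574 for B2m, from 131 to 937 for Tap1 and from 6 to 1371 for H2-Q6.

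Between groups these levels moved little, and between animals of a group they moved much. The B2m group means lay between 288 TPM (CAC at week 2) and 585 TPM (NCAC at week 2), a ratio of 2.03, whereas single libraries differed 7.03-fold. In order of group mean, B2m ran from NCAC week 2 (585), Con week 8 (560), NCAC week 4 (466), CAC week 8 (458), CAC week 4 (417) and Con week 2 (406) to CAC week 6 (398), NCAC week 6 (392), Con week 4 (392), Con week 6 (362), NCAC week 8 (322) and CAC week 2 (288). For every member, all 11 pairs of neighbouring groups in such an order had overlapping ranges. Neighbours in mean are apt to overlap, and groups farther apart need not. H2-Q7 and Tap1 had ranges in NCAC and Con at week 8 that did not overlap. CAC at week 2 had the lowest group mean for H2-D1, H2-Q4, H2-Q6, B2m, Psmb8 and Psmb9. Con at week 8 had the highest for H2-K1, H2-Q7, Tap1, Tap2, Psmb8 and Psmb9.

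**Figure D1:**
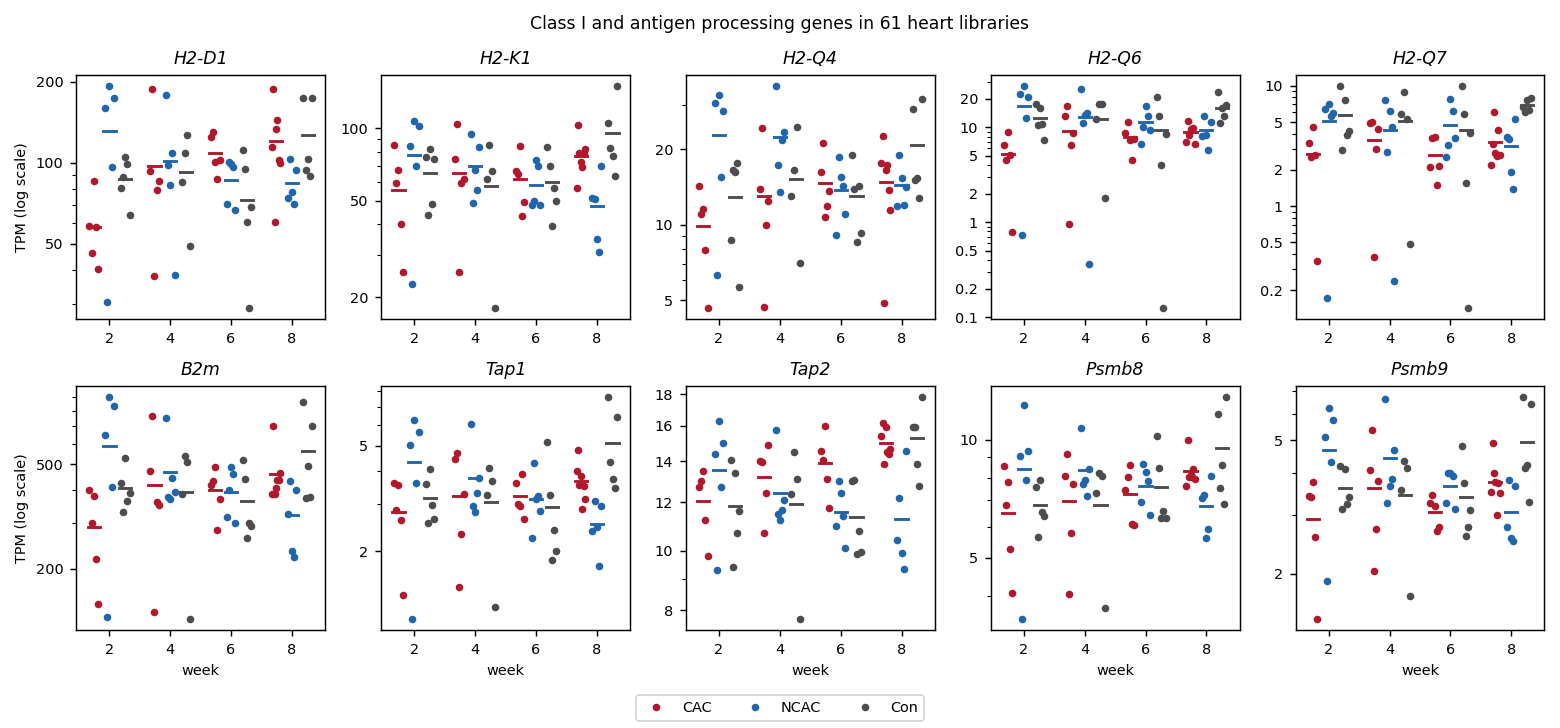
TPM of each member (log axis) in each of the 61 libraries by week, with CAC, NCAC and Con from left to right; horizontal bars are group means. Groups of the same week overlap, except NCAC and Con at week 8 for H2-Q7 and Tap1, and B2m spans 129 to 905 TPM.

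Set against all tested genes, the members were among the most variable within groups. The SD between libraries of a group on the log2(TPM + 1) scale was 1.03 for H2-Q6, 0.82 for H2-Q7, 0.60 for B2m and H2-D1, 0.59 for H2-Q4, 0.56 for H2-K1 and 0.40 for Tap1. It was 0.32 for Psmb9, 0.31 for Psmb8 and 0.20 for Tap2, against a median of 0.15 over all genes. In this ranking 9 of the 10 members stood above the 90th percentile of genes, and Tap2 stood at percentile 75.7. Differences between the 12 groups accounted for 16.5 to 38.1% of a member's sum of squares, with a median of 22.7%, while the median over all genes was 45.3%. Such a share lies above 0 even where groups do not differ, because 12 means are fitted to 61 libraries.

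**Figure D2:**
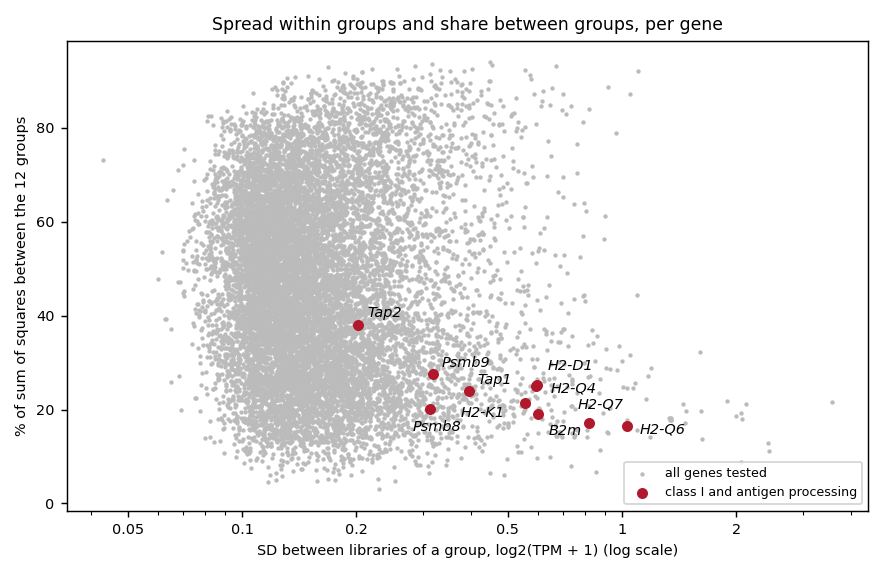
SD between libraries of a group (log2(TPM + 1), log axis) against the share of the sum of squares that lies between the 12 groups, for all 12541 genes (grey) and the 10 members (red). All 10 members lie to the right of the median gene, Tap2 nearest to it with a share of 38.1%, and the other 9 have shares of 16.5 to 27.5%.

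The members moved together from animal to animal. After subtraction of group means, the 45 pairs of members had correlations over the 61 libraries of 0.43 to 0.95, with a median of 0.77. Against B2m, Psmb8 had a Pearson r of 0.95 and a Spearman rho of 0.93, H2-K1 0.93 and 0.91, and Psmb9 0.94 and 0.91. Tap1 had 0.90 and 0.84, Tap2 0.84 and 0.83, and the 5 heavy chains a Pearson r of 0.76 to 0.93. In a family of 11 relations with B2m, each of these 9 had a permutation p of 1e-05, the smallest that 100000 resamples can give, and a Benjamini-Hochberg adjusted p of 1.1e-05. Without the 2 libraries farthest from the B2m median, r was 0.67 to 0.92. Within arms r was 0.76 to 0.96 in CAC, 0.77 to 0.95 in NCAC and 0.70 to 0.96 in Con. These libraries share one normalisation, and members of a pair share the shift of each library's total.

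The lowest libraries were the same for 5 of the 10 members. B2m was under 200 TPM in 4 libraries, CAC week 2 replicate 5 (147 TPM), NCAC week 2 replicate 2 (131), CAC week 4 replicate 3 (137) and Con week 4 replicate 5 (129), and the next lowest library had 218 TPM. In these 4 libraries H2-K1 had 25.4, 22.6, 25.3 and 18.0 TPM and Psmb8 4.07, 3.49, 4.04 and 3.72 TPM, in the same order. These 4 were also the lowest 4 for H2-K1, Tap1, Psmb8 and Psmb9. H2-D1, H2-Q6 and H2-Q7 were lowest in Con week 6 replicate 4, and for H2-Q4 and Tap2, 2 of the 4 were among the lowest 4. The 4 libraries came from all 3 arms and from weeks 2 and 4. Without them the correlations of the 9 members with B2m were 0.58 to 0.90 over 57 libraries. At the upper end of B2m stood NCAC week 2 replicate 3 (905 TPM), Con week 8 replicate 1 (864), NCAC week 2 replicate 5 (832), CAC week 4 replicate 2 (765) and NCAC week 4 replicate 1 (752).

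**Figure D3:**
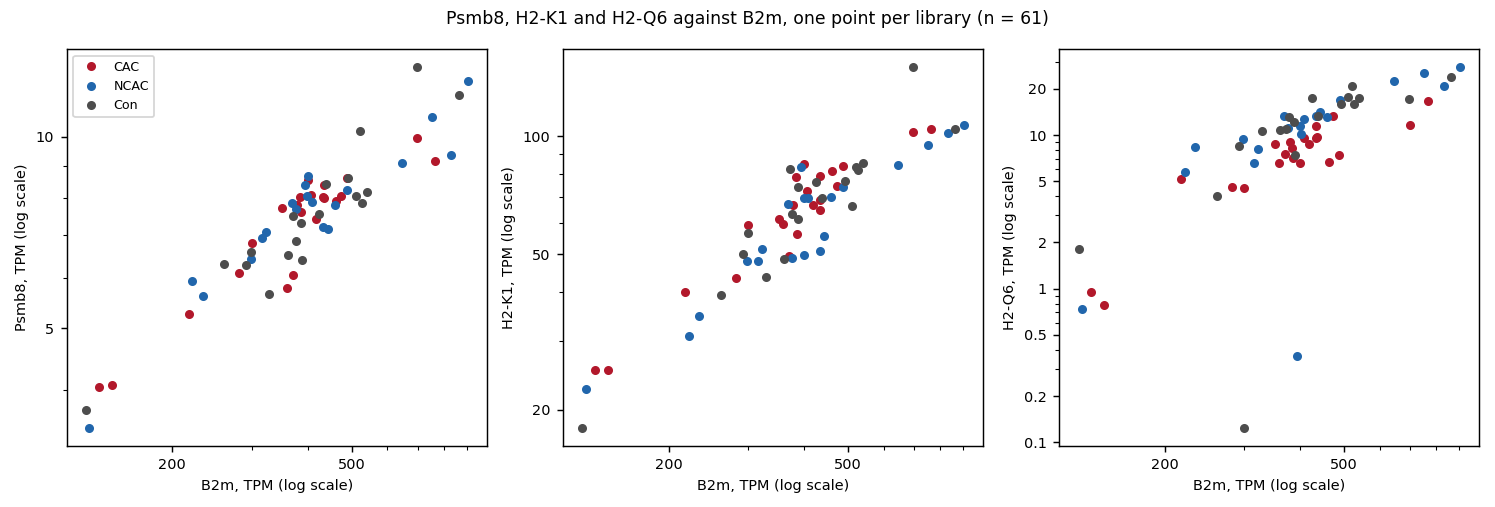
Psmb8, H2-K1 and H2-Q6 against B2m, in TPM on log axes, with 1 point per library (n = 61) coloured by arm. Psmb8 and H2-K1 follow B2m closely, the 4 lowest libraries included, while H2-Q6 has 2 libraries near 0 at ordinary B2m levels.

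Outside the 10 members, the gene most like the mean profile of B2m, Tap1, Tap2, Psmb8 and Psmb9 over the 61 libraries was the class I gene H2-T22 (r = 0.93), and the next was Nlrc5 (0.91). Also among the 5 most alike were the interferon-inducible GTPase genes Irgm1 (0.87) and Irgm2 (0.87). H2-T22 is related in sequence to the heavy chain members. Nlrc5 ran from 0.09 TPM in Con week 4 replicate 5 to 4.55 TPM, with a median of 1.40 TPM. After subtraction of group means its correlation with the 10 members was 0.64 to 0.92 and that of Irf1 0.43 to 0.69. Irf1 followed B2m in NCAC (r = 0.68) and Con (r = 0.71), and in CAC its r was 0.09. The interferon gene Ifng lay between 0 and 0.10 TPM and Ifnb1 between 0 and 0.06 TPM in all 61 libraries.

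Single marker genes of cell types that hold class I were less closely tied to the members. Correlations of the members with other markers of these types were not computed. The leukocyte gene Ptprc had correlations of 0.32 to 0.57 with the 10 members, the macrophage gene Cd68 of 0.28 to 0.59 and the endothelial gene Pecam1 of 0.02 to 0.43. Those of the cardiomyocyte gene Myh6 were -0.38 to -0.17.

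**Figure D4:**
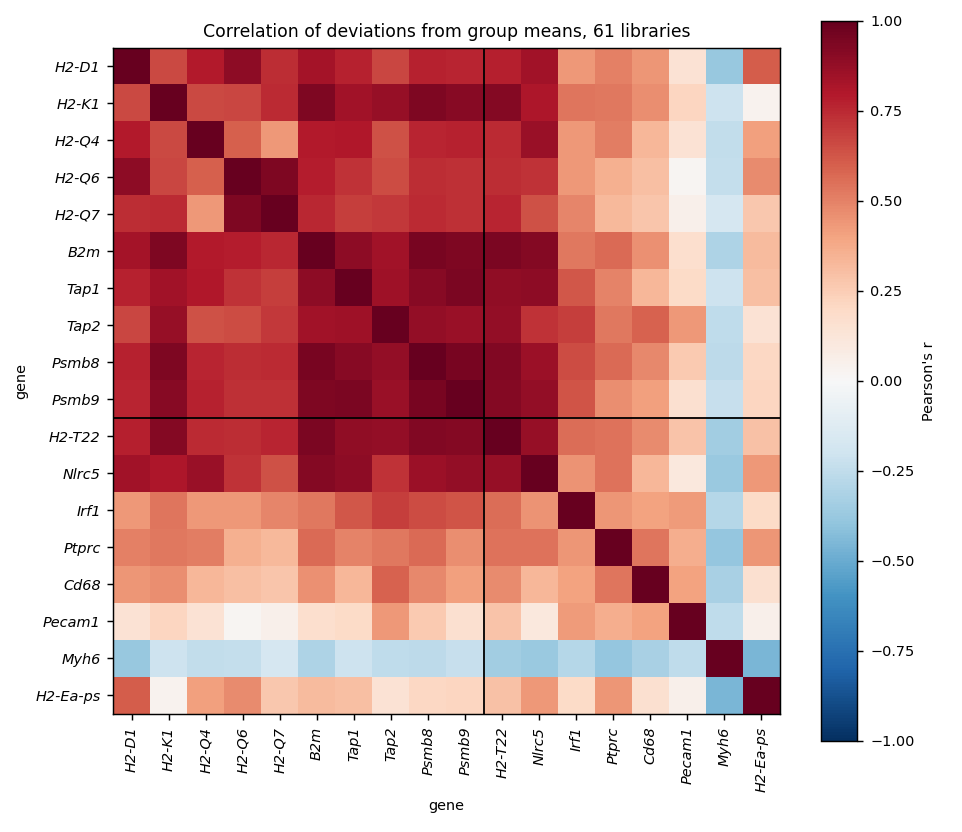
Pearson correlation over 61 libraries of the deviations of log2(TPM + 1) from group means, for the 10 members (above and left of the lines) and 8 other genes. Members correlate with each other, with H2-T22 and Nlrc5 at 0.43 to 0.95, and with Pecam1 and Myh6 at 0.43 or below.

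At weeks 2 and 4 no member passed the test (limma, adjusted p under 0.05 over all genes) between any 2 arms. CAC over Con called 1.84% of all genes at week 2 and 15% at week 4, and NCAC over Con called 0% at each of weeks 2, 4 and 6. At an unadjusted p under 0.05 none of the 10 passed in these comparisons at weeks 2 and 4. In CAC over NCAC at week 2, where 0.59% of genes were called, all 10 members had negative fold changes. There B2m had 399, 300, 378, 218 and 147 TPM in CAC hearts, against 647, 131, 905, 408 and 832 TPM in NCAC hearts. The ranges overlapped through NCAC replicate 2, the lowest library of both groups, and the log2 fold change was -0.83 ± 0.37 (SE; adjusted p = 0.28 by limma). H2-D1 averaged 57.7 ± 17.5 TPM in CAC and 131 ± 67.0 TPM in NCAC hearts (SD, n = 5 each; log2 fold change -0.97, adjusted p = 0.204 by limma). Without NCAC replicate 2, H2-D1 alone passed the test, in a fit that called 0.407% of all genes. The unadjusted p was under 0.05 for 4 of the 10, beside 14.3% of all genes. At week 4, CAC over NCAC called 16.5% of genes, and H2-Q4, at 13.0 ± 7.20 TPM in CAC and 22.4 ± 8.45 TPM in NCAC hearts (SD, n = 5 each), had the lowest limma adjusted p of 0.109 and was the 1 member with an unadjusted p under 0.05, beside 31% of all genes.

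At week 6, 55.8% of all genes were called in CAC over Con and 54.5% in CAC over NCAC, and no member was in either (1 and 0 at an unadjusted p under 0.05, and 0 in NCAC over Con; for CAC over Con 60.6% of all genes had such a p). Tap2, which forms the peptide transporter with Tap1, came nearest. It had 14.5, 14.1, 16.0, 13.1 and 11.8 TPM in CAC hearts, against 13.0, 13.0, 9.89, 10.8 and 9.94 TPM in Con hearts. The ranges overlapped, with a log2 fold change of 0.28 ± 0.13 (SE, adjusted p = 0.0561 by limma), beside a median of 0.21 over all genes. H2-D1 averaged 109 ± 18.1 TPM in CAC and 72.8 ± 32.0 TPM in Con hearts (SD, n = 5 each; adjusted p = 0.098 by limma). Leaving out CAC replicate 5, Con replicate 1 or Con replicate 2 brought Tap2 past the threshold, and leaving out Con replicate 1 also brought H2-D1. In the same order these fits called 57.1, 50.6 and 53.8% of all genes.

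At week 8, CAC over NCAC called 66.1% of all genes (57.4% higher, 8.76% lower), and 2 of the 10 members, H2-K1 and Tap2, were among the higher ones. A share of 2 in 10 lay below that background. H2-K1 had 56.4 TPM in the lowest, 78.6 in the median and 103 in the highest of 7 CAC hearts, against 51.6, 50.9, 34.7, 30.8 and 69.6 TPM in NCAC hearts. The ranges overlapped, with 5 of 7 CAC hearts above every NCAC heart. Its log2 fold change was 0.73 ± 0.31 (SE, 95% interval 0.10 to 1.36, adjusted p = 0.0383 by limma). Tap2 had 13.9 TPM in the lowest, 14.7 in the median and 16.2 in the highest CAC heart, against 10.4, 12.2, 9.93, 9.34 and 14.6 TPM in NCAC hearts. NCAC replicate 5 fell among the CAC hearts, and 4 of 7 CAC hearts lay above every NCAC heart. The log2 fold change of Tap2 was 0.39 ± 0.12 (SE, 95% interval 0.16 to 0.63, adjusted p = 0.0027 by limma).

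Both calls depend on the scale. The median of all genes was 0.24 in this comparison and that of the 10 members 0.33. After median-of-ratios rescaling H2-K1 had a log2 fold change of 0.45 (adjusted p = 0.244 by limma) and Tap2 of 0.13 (0.363), and neither was called. Neither was called after rescaling without mitochondrial and haemoglobin genes. H2-K1 also lost its call when CAC replicate 2, 6 or 7 or NCAC replicate 3 or 4 was left out. The other 8 members had log2 fold changes between -0.05 (H2-Q4) and 0.53 (B2m), and B2m averaged 458 ± 110.0 TPM in CAC hearts (SD, n = 7) and 322 ± 95.0 TPM in NCAC hearts (SD, n = 5).

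CAC over Con at week 8 called 60.8% of all genes and none of the 10 members, also at an unadjusted p under 0.05. All 10 fold changes were negative, with a median of -0.28 on the log2 scale, whereas the median of all genes was 0.19. H2-Q7 came nearest the threshold. It had 2.19 TPM in the lowest, 2.74 in the median and 6.05 in the highest of 7 CAC hearts, against 6.60, 6.03, 7.64, 6.25 and 7.86 TPM in Con hearts. The ranges just overlapped, through CAC replicate 3, and 6 of 7 CAC hearts lay below every Con heart. The log2 fold change of H2-Q7 was -0.88 ± 0.46 (SE, 95% interval -1.80 to 0.04, adjusted p = 0.0931 by limma). H2-Q6 averaged 8.94 ± 1.73 TPM in CAC hearts (SD, n = 7) and 16.2 ± 4.82 TPM in Con hearts (SD, n = 5; log2 fold change -0.77, adjusted p = 0.253 by limma). Fitted on these 2 groups alone, where 48.3% of all genes were called, both H2-Q6 and H2-Q7 passed the test. The 3 most abundant members differed by less than the SD of the Con hearts. B2m averaged 458 ± 110.0 TPM in CAC hearts, against 560 ± 215 TPM in Con hearts (log2 fold change -0.24), H2-D1 121 ± 40.4 TPM in CAC hearts, against 127 ± 43.7 TPM in Con hearts, and H2-K1 77.1 ± 14.1 TPM in CAC hearts, against 95.5 ± 33.9 TPM in Con hearts (-0.26). Tap2 averaged 15.0 ± 0.854 TPM in CAC hearts, against 15.3 ± 1.99 TPM in Con hearts. The difference between CAC and Con at week 8 was tested against that at weeks 2, 4 and 6, which called 26.5, 7.69 and 0.152% of all genes and no member, also at an unadjusted p under 0.05.

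In NCAC over Con at week 8, 0.71% of all genes were called and no member was, although all 10 means were lower in NCAC and 6 had an unadjusted p under 0.05, beside 15.5% of all genes. Tap1 had 2.39, 3.10, 2.45, 1.76 and 2.96 TPM in NCAC hearts, against 7.65, 4.35, 3.75, 3.45 and 6.38 TPM in Con hearts. These ranges did not overlap, as was also the case for H2-Q7 and no other member; over all genes the share without overlap was 1.81%. The log2 fold change of Tap1 was -0.76 ± 0.24 (SE, 95% interval -1.24 to -0.27, adjusted p = 0.111 by limma). H2-K1 averaged 47.5 ± 15.5 TPM in NCAC hearts and 95.5 ± 33.9 TPM in Con hearts (SD, n = 5 each; log2 fold change -0.99, adjusted p = 0.145 by limma). The Con hearts at week 8 enter this comparison and CAC over Con alike, and replicates 1 and 5 among them had the highest Tap1, Psmb8 and Psmb9 levels of their group. Without NCAC replicate 5, where 3.15% of all genes were called, Tap2 passed the test (log2 fold change with all libraries -0.41, adjusted p = 0.0885 by limma).

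**Figure D5:**
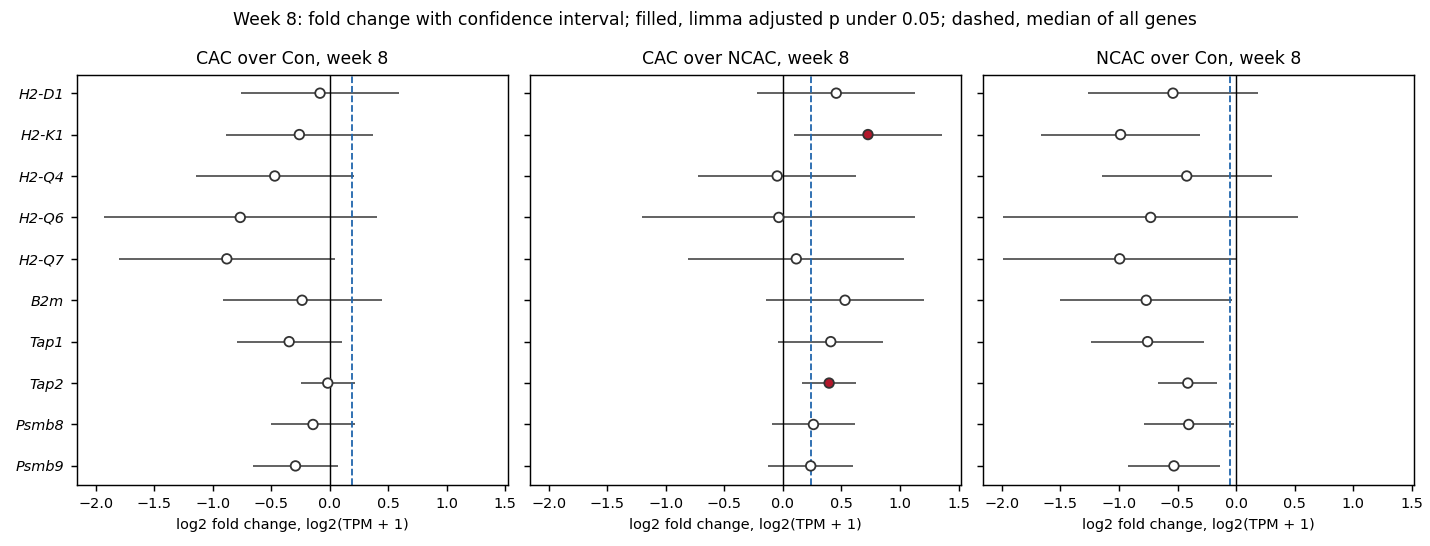
Log2 fold change of each member at week 8 with its 95% interval, for CAC over Con, CAC over NCAC and NCAC over Con; filled points passed the limma test and the dashed line is the median of all genes. Every point of CAC over Con and NCAC over Con lies left of 0, and the 2 filled points are H2-K1 and Tap2 in CAC over NCAC.

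Within a library, H2-Q6 was low relative to B2m in CAC hearts of week 8. The ratio of H2-Q6 to B2m was 1.44 to 2.35% in 7 CAC hearts, against 2.53 to 3.58% in 5 NCAC hearts and 2.44 to 3.50% in 5 Con hearts. The CAC range lay below both others. An exact two-sided permutation test gave p = 0.0025 for CAC over NCAC and for CAC over Con, the smallest that 7 against 5 libraries allow, and an adjusted p of 0.0341 over the 27 tests of 9 ratios in 3 comparisons. The other 25 tests did not pass after adjustment. A ratio within a library does not depend on the scaling of its total, and it does not say which of both genes moved. These ratios were computed after the values had been seen, and the adjusted p does not account for that choice. The 27 tests cover week 8 only, and the ratios of earlier weeks were not tested. At earlier weeks the CAC ratio averaged 1.68 ± 0.756% (week 2), 2.00 ± 0.815% (week 4) and 1.98 ± 0.448% (week 6; SD, n = 5 each). The NCAC ratio averaged 2.53 to 2.83% and the Con ratio 2.31 to 3.06% at those weeks, with overlapping ranges. Between H2-Q6 and H2-Q7 the division of shared reads is uncertain.

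Some libraries differed in MHC genes in a way no group label gives. H2-Ea-ps, annotated as a polymorphic pseudogene in the MHC on chromosome 17, was under 1 TPM in 8 of 61 libraries and had a median of 11.3 TPM, up to 51.5. The 8 libraries were CAC week 2 replicates 1 and 2, Con week 2 replicate 5, NCAC week 4 replicate 5, Con week 6 replicate 4, CAC week 8 replicate 3 and Con week 8 replicates 2 and 5. In NCAC week 4 replicate 5 H2-Q6 had 0.36 TPM and in Con week 6 replicate 4 it had 0.12 TPM, at B2m levels of 393 and 300 TPM. H2-Q7 was low there too, at 0.24 and 0.14 TPM. The others of the 8 had 141 to 777 H2-Q6 reads, against 17 in NCAC week 4 replicate 5 and 6 in Con week 6 replicate 4. The ratio of H2-D1 to H2-K1 in the latter libraries was at the low end, at 0.461 and 0.509, in a range up to 2.72 with a median of 1.40. In all 8 libraries this ratio lay below that median, at 0.461 to 1.17. Across the 61 libraries, with group means subtracted, H2-Ea-ps had correlations of 0.04 to 0.60 with the members. Without the 8 libraries Tap2 kept its call in CAC over NCAC at week 8 and H2-K1 did not. Whether the animals carried different MHC alleles was not tested.

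The genes around the members in the pathway were described by lists. The list counts at week 8 stand beside the shares of 60.8% called in CAC over Con, 66.1% in CAC over NCAC and 0.71% in NCAC over Con. These shares count both directions together, and the split for CAC over Con is not given here. In CAC over NCAC 57.4% of all genes were higher and 8.76% lower. After median-of-ratios rescaling 51.7% were called in CAC over Con and 51.3% in CAC over NCAC. After rescaling without mitochondrial and haemoglobin genes 56.7% were called in CAC over NCAC and 9.11% in NCAC over Con. The lists were written with earlier results of these data known. Of 12 other class I and class I-like genes tested (median log2 fold change 0.16, beside 0.19 over all genes), 3 were higher and 1 lower in CAC over Con. The higher ones were Fcgrt, the neonatal Fc receptor, at 82.8 ± 14.9 TPM in CAC hearts and 53.8 ± 2.72 TPM in Con hearts (SD, n = 7 and 5; log2 fold change 0.59), Mr1, which presents vitamin metabolites (0.49), and Cd1d1, which presents lipids (0.36). H2-Q5 was lower, at 1.31 ± 0.486 TPM in CAC hearts and 3.41 ± 1.21 TPM in Con hearts (log2 fold change -0.91, adjusted p = 0.0136 by limma). Cd1d1 lost its call under both rescalings, each of which gave 2 higher and 2 lower. As a close copy of the other Qa-region genes, H2-Q5 may share reads with them. Against NCAC, 6 of the 12 were higher in CAC and none lower (median 0.33). Median-of-ratios rescaling left 2 higher (median 0.12) and the other rescaling 5. In NCAC over Con none was called.

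Of 7 peptide loading and trimming genes (median 0.18), 3 were higher in CAC over Con and none lower. These were the chaperones Calr (157 ± 26.9 TPM in CAC hearts and 112 ± 12.6 TPM in Con hearts; log2 fold change 0.48), Pdia3 (0.33) and Canx (0.22). They fold glycoproteins of many kinds in the endoplasmic reticulum, and Calr alone was called after either rescaling. In CAC over NCAC 6 of 7 were higher (median 0.35), 3 after median-of-ratios rescaling (median 0.07) and 4 after the other rescaling. They were led by Tapbpl (log2 fold change 0.48) and tapasin, Tapbp (0.47), which joins class I to the transporter and is dedicated to this pathway. Tapbp was also the member of its list that fell in NCAC over Con, with 27.4 ± 5.89 TPM in NCAC hearts and 36.1 ± 4.64 TPM in Con hearts (SD, n = 5 each; log2 fold change -0.40, adjusted p = 0.03 by limma).

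Of 8 proteasome partners (median 0.24), 6 were higher in CAC over Con, among them the assembly factor Pomp (log2 fold change 0.31), the constitutive subunits Psmb6 (0.27) and Psmb5 (0.23) and the activator subunit Psme2 (0.25). These differences were near the all-gene median of 0.19. After median-of-ratios rescaling none of the 8 was higher and 1 lower, and after rescaling without mitochondrial and haemoglobin genes 1 was higher. Against NCAC, 5 were higher in CAC, and after median-of-ratios rescaling none higher and 4 lower. In NCAC over Con Pomp was higher (0.24).

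Of 12 transcription regulators of class I (median 0.20), 6 were higher in CAC over Con, including Irf2 (log2 fold change 0.44), the class II and class I cofactor Rfxank (0.79), the NF-kappaB subunit Rela (0.32) and Stat2 (0.44). Median-of-ratios rescaling left 2 higher and 4 lower, and Irf2 and Rfxank kept their calls. In CAC over NCAC 9 were higher, and each rescaling gave 6 higher and 1 lower. Stat2 stood at 11.7 ± 2.27 TPM in CAC hearts (SD, n = 7) and 5.66 ± 1.10 TPM in NCAC hearts (SD, n = 5; log2 fold change 0.93). Irf1 fell in NCAC over Con, with 7.75 ± 0.901 TPM in NCAC hearts and 11.3 ± 1.43 TPM in Con hearts (SD, n = 5 each; log2 fold change -0.49, adjusted p = 0.0126 by limma).

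Of 8 interferon receptor and signalling genes tested, Socs1 among them (median 0.18), 4 were higher and 1 lower in CAC over Con. Ifnar2 (log2 fold change 0.61), Ifngr1 (0.48), Jak2 (0.49) and Ifnar1 (0.21) were higher. Ifngr2, the second chain of the interferon gamma receptor, was lower, with 42.0 ± 10.5 TPM in CAC hearts and 66.0 ± 5.64 TPM in Con hearts (SD, n = 7 and 5; log2 fold change -0.67). Ifnar1 lost its call under both rescalings, each of which gave 3 higher and 2 lower. In CAC over NCAC 5 were higher and 1 lower.

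Of 9 interferon gamma-induced GTPase genes (median -0.53), whose products act against intracellular microbes, 6 were lower in CAC over Con and none higher, and both rescalings gave 7 lower. Gbp4 averaged 2.33 ± 0.761 TPM in CAC hearts and 5.45 ± 0.887 TPM in Con hearts (log2 fold change -0.97), Gbp3 3.17 ± 1.43 TPM in CAC hearts and 7.62 ± 2.17 TPM in Con hearts (-1.07), and Gbp5 1.70 ± 0.547 TPM in CAC hearts and 2.87 ± 0.560 TPM in Con hearts (-0.53; SD, n = 7 and 5). Igtp (-1.38) ranged from 10.6 to 26.7 TPM in CAC and from 14.0 to 175 TPM in Con. Against NCAC, 2 of 9 were higher in CAC and 1 lower. In NCAC over Con none was called, with a median of -0.58, beside -0.53 in CAC over Con, and both comparisons share the Con hearts; the rescalings gave 1 and 2 lower. The 6 MHC class II genes tested had no call in any of the 3 comparisons, with a median log2 fold change of -0.71 in CAC over Con, and both rescalings called 2 of them lower.

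Markers of several cell types differed between the week 8 groups. Of 6 cardiomyocyte markers, 4 were lower and 1 higher in CAC over Con and likewise in CAC over NCAC; each rescaling gave 5 lower over Con and 4 lower over NCAC. They summed to 15182.5 to 24652.5 TPM in CAC hearts, 22671.7 to 29717.8 TPM in NCAC hearts and 24409.2 to 30680.4 TPM in Con hearts. All 8 macrophage markers were higher in CAC over Con, and their summed level was 432 to 843 TPM in CAC hearts, 134 to 270 TPM in NCAC hearts and 202 to 290 TPM in Con hearts. The 6 endothelial markers summed to 205 to 266 TPM in CAC, 183 to 255 TPM in NCAC and 242 to 302 TPM in Con. The 7 natural killer cell markers summed to 0.44 to 1.29 TPM in CAC, against 2.56 to 3.91 TPM in NCAC and 2.60 to 4.59 TPM in Con. Summed fibroblast markers were 638 to 1343 TPM in CAC, 410 to 588 TPM in NCAC and 463 to 561 TPM in Con, and neutrophil markers 17.5 to 45.5 TPM in CAC, 12.1 to 33.6 TPM in NCAC and 6.69 to 21.3 TPM in Con. B cell markers summed to 3.61 to 9.91 TPM in CAC, 7.72 to 11.1 TPM in NCAC and 6.81 to 14.3 TPM in Con, and dendritic cell markers to at most 7.68 TPM in CAC. Melanocyte markers summed to 2.64 to 9.65 TPM in CAC, 1.22 to 5.29 TPM in NCAC and 2.60 to 4.36 TPM in Con. Among them Mlana, a melanocyte and melanoma antigen, had 0.974 to 8.78 TPM in CAC hearts and 0.0702 to 0.282 TPM in Con hearts. Of the 2 melanocyte markers tested, 1 was higher and 1 lower in CAC over Con and likewise in CAC over NCAC. The part of these cells in the class I levels was not tested.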

How the data were processed

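RNA from 62 mouse hearts was sequenced by the authors after Trizol extraction and stranded mRNA library preparation, per the labels' protocols. The authors deposited TPM per gene symbol, and per the submitters' processing notes reads were mapped to mm10. The tools for mapping and counting are not given in the sources used here. TPM is a share, so abundant transcripts that change shift all other genes. A 3-week time point after injection of LLC cells, named in the protocol, matches no sample.

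Groups came from the labels. Values were transformed as log2(TPM + 1), which understates changes of low genes, and genes with 1 TPM in at least 5 libraries (12541) were fitted over 61 libraries with limma 3.58.1 (limma-trend, R 4.3.3, package data.table (version 1.17.8)), with Benjamini-Hochberg adjustment in each of 12 pairwise comparisons and 3 differences between weeks, threshold 0.05. Con week 4 replicate 2 was left out. Tests on single ratios were exact permutation tests, and correlations were tested with 100000 resamples. Depth was recovered from TPM steps and exon lengths of GENCODE M21, an assumed version; 81.4 to 83.8% of values under 10 reads came within 0.05 of a whole number. Python 3.11.15, pandas 2.3.3, numpy 2.4.6, scipy 1.17.1, matplotlib 3.10.9 and Biopython 1.88 were used.

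The fit was tested on simulated data. The members and lists were chosen with earlier results of these data known. Named genes were all 10 members, up to 4 called genes of each list with the smallest p in CAC over Con at week 8 (all where 5 or fewer were called), and the 5 genes most like the mean of B2m, Tap1, Tap2, Psmb8 and Psmb9, of which 1 is not reported here; the leading genes of CAC over NCAC, the marker genes and H2-Ea-ps were chosen after their values were seen. Alternatives were a pseudocount of 0.1, no filter, a filter of 5 TPM, 2 rescalings, array quality weights, a replicate block, the compared groups alone, all 62 libraries, a term for H2-Ea-ps and leaving out each library; leaving out libraries under 1 TPM of H2-Ea-ps was added after the data were seen. Pathway lists had counts and medians only.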

Additional observations from a re-analysis of the deposited data

Results flagged for a closer look

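In 5 of 120 combinations of a member and a group, a single library stood apart from the rest of its group; chance alone marks about 1 in 20. CAC week 8 replicate 2 was highest for B2m, at 699 TPM with the next library at 462 TPM, and for Psmb8, at 9.96 TPM with the next at 8.40 TPM. NCAC week 4 replicate 1 was highest for B2m, at 752 TPM with the next at 442 TPM, and for Tap2, at 15.7 TPM with the next at 12.1 TPM. NCAC week 2 replicate 2 was lowest for H2-Q7, at 0.174 TPM with the next at 5.66 TPM. Without CAC week 8 replicate 2, H2-K1 lost its call in CAC over NCAC at week 8.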

How the results depend on the processing

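Counts of members called are given for each alternative that changed them. For CAC over NCAC at week 8 (2 members), no filter and all 62 libraries gave 1 each (41.2 and 41.8% of all genes called). A term for H2-Ea-ps and leaving out libraries under 1 TPM of H2-Ea-ps also gave 1 each (66 and 70.7%). Median-of-ratios rescaling gave 0 there (51.3%), and rescaling without mitochondrial and haemoglobin genes gave 0 (56.7%). The compared groups alone gave 5 higher, where 55.8% of all genes were called. For CAC over Con at week 8 (0), median-of-ratios rescaling gave 1 lower (Psmb9) and the compared groups alone 2 lower (51.7 and 48.3% of all genes called). For NCAC over Con at week 8 (0), rescaling without mitochondrial and haemoglobin genes and array quality weights gave 2 lower each (Tap1 and Tap2; 9.11 and 7.15% of all genes called). Array quality weights gave 4 lower for CAC over NCAC at week 2 (11% of all genes called), 1 lower for CAC over NCAC at week 4 (18.3%) and 2 higher for CAC over Con at week 6 (61.4%). The compared groups alone gave 1 higher (Tap2) for CAC over Con and for CAC over NCAC at week 6 (56.8 and 52.4% of all genes called). Leaving out single libraries gave 1 to 2 for CAC over NCAC at week 8, 0 to 1 for NCAC over Con at week 8, 0 to 1 for CAC over NCAC at week 2, 0 to 2 for CAC over Con at week 6 and 0 for the other 11 comparisons. Where a left-out library changed the count, 60.6 to 65.3% of all genes were called in CAC over NCAC at week 8. That share was 3.15% in NCAC over Con at week 8 and 0.407% in CAC over NCAC at week 2. It was 50.6 to 57.1% in CAC over Con at week 6. The cause of these changes was not tested. Of 23 alternatives, H2-K1 was called in 11 (log2 fold change 0.45 to 0.88, limma adjusted p 0.0054 to 0.244) and Tap2 in 21 (0.13 to 0.48, 5.1e-04 to 0.363) for CAC over NCAC at week 8. In both comparisons the CAC range of the H2-Q6 to B2m ratio lay below the other, so leaving out libraries could not turn its direction. The unadjusted exact permutation p-values, 0.0043 to 0.0238 in the 13 alternatives of each comparison, were the smallest their library numbers allow. No member test turned its direction past the threshold.

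With the replicate number as a block, 1 member (Tap2) was called for CAC over NCAC at week 8, beside 62.9% of all genes. Replicate numbers showed no pairing: 14 of 58 same-number pairs correlated above 0.1 (range -0.28 to 0.41), and 10 correlated best with their own number. H2-Q6 and H2-Q7 had the fewest reads in a single library, 6 and 14 in Con week 6 replicate 4, whose depth was 47.4 M reads. By median over libraries Psmb9 had the fewest, 282 reads.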
